A study of Mus musculus with 9 samples.

Results

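The plasminogen activation system was followed here through 6 genes in a mouse pancreatic cancer line, in a clone edited in the palmitoyltransferase gene Zdhhc20 and in unedited cells. The genes were taken by name from a list of activators, receptor, inhibitors and surface binders, and all 6 were found among the 54838 gene identifiers of the count table. They were Plau, Plat, Plaur, Serpinb2, Serpine2 and Anxa2. Of these, 5 had enough counts to be tested, and Serpine2 did not.

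Plasmin is a broad protease that dissolves fibrin and degrades parts of the extracellular matrix. It is cut from its inactive precursor plasminogen, made mainly by the liver, by the urokinase-type activator (gene Plau) or the tissue-type activator (gene Plat). Urokinase is concentrated on the cell surface by its receptor (gene Plaur), serpins such as those of Serpinb2 and Serpine2 inhibit the activators, and annexin A2 (gene Anxa2) binds plasminogen and tissue activator at the surface. In pancreatic ductal adenocarcinoma this system is known for its part in matrix breakdown and invasion.

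RNA-seq was available for 3 groups of 3 libraries, all from PDA530 Met, a cell line cultured from a hepatic metastasis of a male KPC mouse of mixed 129/SvJae/C57Bl/6 background. KPC mice are a genetic model of pancreatic ductal adenocarcinoma. The knockout libraries came from clone E4, a single-cell clone edited in Zdhhc20 with CRISPR/Cas9. The control libraries came from clone C5, a single-cell clone that went through nucleofection with identical guide RNAs but stayed unedited and still expresses Zdhhc20. The third group was the parental line, named PDA530 Met in most labels and PDA50 Met in the design text. All cells were untreated. Each clone group is 1 clone, so a difference between clones and an effect of the edit cannot be told apart. The labels call the libraries biological replicates without naming separate cultures, and p-values measure only the spread between these libraries.

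The libraries held 16525869 to 23192701 counts. Zdhhc20 measured 37.5, 33.9 and 42.5 CPM (counts scaled by library size) in the knockout libraries, against 85.8 to 123 CPM in the control clone and 75.3 to 90.7 CPM in the parental cells, so its RNA was lowered and not absent (log2 fold change -1.53 and -1.12, edgeR adjusted p = 6.97e-05 and 0.000585). The labels do not give the position of the edit in the gene. The label of a ductal carcinoma line was checked on 8 ductal epithelial markers, whose summed level was 4343 to 4474 CPM in knockout clone E4, 7038 to 9406 CPM in the control clone and 6734 to 8206 CPM in the parental cells. Epcam, a defining epithelial gene, was near 0 in these libraries, and 5 of the 8 markers were lower and 1 higher in the knockout clone in both comparisons. Summed fibroblast markers reached at most 4.05 CPM, and 4 of 8 (Col1a2, Dcn, Lum and Thy1) had no count in any library. Endothelial markers reached at most 0.577 CPM and liver markers at most 3.00 CPM. Macrophage markers summed to 18.2 to 20.1 CPM in knockout clone E4, 24.9 to 42.2 CPM in the control clone and 47.4 to 55.2 CPM in the parental cells, mostly from Cd14, while Adgre1 had no count. The part of these marker differences in the results below was not tested.

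RefSeq promoters (GRCm38.p6) were matched for 4 of the 6 genes, and 3 of these genes differed between the knockout clone and both other groups: Plaur at chr7:24462233-24462482, Serpinb2 at chr1:107511173-107511422 and Anxa2 at chr9:69453433-69453619, all on the plus strand. Bases upstream of their transcript starts are shown because the receptor was higher in the knockout clone while the inhibitor and the annexin were lower. Sequences run 5′ to 3′, and capitals mark TGANTCA, the core of the AP-1 site with any base in the middle, searched on both strands. The Anxa2 sequence stops before the GENCODE start of the gene at 69453620, and the bases from there to the RefSeq start at 69453683 are not printed.
Plaur: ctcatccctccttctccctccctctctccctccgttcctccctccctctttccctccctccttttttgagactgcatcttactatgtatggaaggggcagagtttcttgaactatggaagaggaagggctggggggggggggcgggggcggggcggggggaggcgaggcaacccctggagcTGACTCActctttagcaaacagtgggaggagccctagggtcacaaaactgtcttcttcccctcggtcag
Serpinb2: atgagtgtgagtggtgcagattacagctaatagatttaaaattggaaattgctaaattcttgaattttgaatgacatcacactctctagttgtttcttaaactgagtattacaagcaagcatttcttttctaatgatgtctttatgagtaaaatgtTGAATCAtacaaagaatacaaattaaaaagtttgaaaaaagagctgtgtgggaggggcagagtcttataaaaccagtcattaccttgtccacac
Anxa2: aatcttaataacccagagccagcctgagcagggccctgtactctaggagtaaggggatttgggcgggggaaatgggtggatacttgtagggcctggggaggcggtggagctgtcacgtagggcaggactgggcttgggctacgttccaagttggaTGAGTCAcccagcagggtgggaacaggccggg

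Plaur and Anxa2 each held the strict core TGAGTCA, on the minus strand in Plaur, where it reads TGACTCA. Its first base lay 69 bases upstream of the RefSeq start in Plaur and 95 bases upstream in Anxa2. Serpinb2 held TGAATCA, which matches only the form with any middle base, 94 bases upstream of the first of its 2 RefSeq starts and 181 bases upstream of the other. The fourth matched promoter, that of Serpine2, held neither form. Among 32851 promoter windows of 250 bases, 4.46% held TGAGTCA and 6.75% held TGANTCA, which includes every TGAGTCA. Other motifs were searched in the same way. The Ets core AGGAAG stood in Plaur and Serpine2, beside 29.5% of all windows. GC boxes (GGGCGG) stood in Plaur, Serpine2 and Anxa2, beside 32.7%, and a TATA box (TATAAA) in Serpinb2 and Anxa2, beside 12.4%. Some of the Anxa2 matches lie in the bases not printed. The motifs were chosen with the expression values known, and these matches describe letters in a window and not bound sites. TGANTCA stood in the promoter of Plaur, which was higher in the knockout clone, and in those of Serpinb2 and Anxa2, which were lower. The part of the motif in these differences was not tested. Genes for AP-1 and Ets factors, 11 listed and all tested, were called higher in 6 and lower in 2 cases in the knockout clone against the control clone, and higher in 5 and lower in 3 against the parental cells, where 42.9% and 31.4% of all genes tested were called. In the control clone itself 1 was higher and 5 lower, relative to the parental cells (21.4% of all genes called), and this count of 6 was 3 without parental replicate 1. The count of 8 called against the control clone was 5 without control replicate 1, without knockout replicate 1 or without knockout replicate 3.

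In the knockout clone the RNAs of both activators and of the urokinase receptor were higher than in either other group, and those of Serpinb2 and Anxa2 were lower. All 5 tested genes differed between the knockout clone and the control clone (3 higher, 2 lower) in edgeR's quasi-likelihood test at a Benjamini-Hochberg adjusted p under 0.05. That comparison called 42.9% of all 13153 genes tested, 18.7% higher and 24.2% lower. The same 5 genes differed in the same directions from the parental cells, where 31.4% of all genes were called, 13.1% higher and 18.3% lower. Comparing the control clone with the parental cells, 0 of the 5 were called against 21.4% of all genes. None of the 5 had an unadjusted p under 0.05 there, and DESeq2 and limma voom also called 0. In each of the 5 genes the 3 knockout libraries lay wholly above or wholly below the 6 others, as did 34.2% of all genes tested. Genes called in 1 direction against both other groups made up 21.5% of all genes tested. The comparisons share libraries, so they are not independent of each other. The median log2 fold change of the 5 genes was 0.37 against the control clone and 0.54 against the parental cells, beside -0.02 and -0.01 for all genes tested. With 3 genes higher and 2 lower, these medians are the values of Plat and of Plaur and not a shift that the 5 share. The 5 values ran from -2.79 to 1.27 and from -2.47 to 1.55. In a bulk measurement, fewer cells that express a gene and less RNA per cell cannot be told apart.

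**Figure D1:**
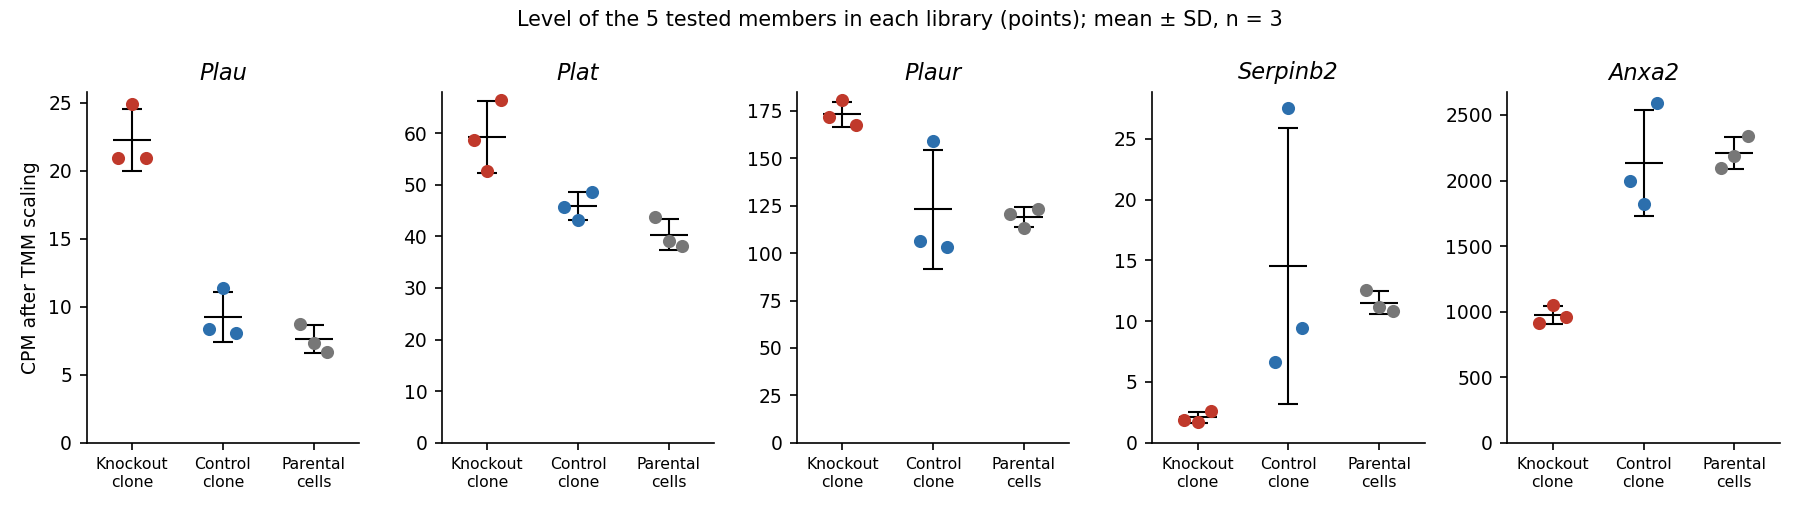
Level of the 5 tested genes in every library, in CPM after TMM scaling on a separate linear axis starting at 0 for each gene, with points for libraries and bars for the group mean ± SD (n = 3). The knockout libraries stand above the other 6 for Plau, Plat and Plaur and below them for Serpinb2 and Anxa2, and control replicate 2 is the highest point of Serpinb2 at 27.5 CPM.

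Plau (ENSMUSG00000021822, chromosome 14, 20836660 to 20843385, plus strand, GRCm38) encodes urokinase, the activator that binds to the cell surface. It measured 20.9, 24.9 and 21.0 CPM in the knockout libraries, 8.34, 11.4 and 8.08 CPM in the control libraries and 8.72, 7.37 and 6.71 CPM in the parental libraries. The lowest knockout library stood well above the highest of the 6 others, while the control and parental ranges overlapped. Mean levels were 22.2 ± 2.27, 9.26 ± 1.82 and 7.60 ± 1.03 CPM (SD, n = 3 each). Plau was 2.41-fold higher than in the control clone (log2 fold change 1.27, SE 0.16, edgeR adjusted p = 0.000287) and 2.92-fold higher than in the parental cells (1.55, SE 0.16, edgeR adjusted p = 0.000177). For the control clone versus parental cells its log2 fold change was 0.28 (SE 0.17, edgeR adjusted p = 0.262).

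Plat (ENSMUSG00000031538, chromosome 8, 22757727 to 22782844, plus strand) encodes the tissue-type activator, which is best known for dissolving clots. Its levels were 58.7, 52.6 and 66.5 CPM in knockout clone E4, 45.8, 43.2 and 48.6 CPM in the control clone and 43.8, 39.0 and 38.2 CPM in the parental cells. The knockout libraries were the highest of the 9, with a narrow gap to control replicate 3. Mean levels were 59.3 ± 6.96, 45.9 ± 2.65 and 40.3 ± 3.02 CPM (SD, n = 3 each). Plat was 1.29-fold higher than in the control clone (log2 fold change 0.37, SE 0.10, edgeR adjusted p = 0.0163) and 1.47-fold higher than in the parental cells (0.55, SE 0.10, edgeR adjusted p = 0.00334). The difference from the control clone lost its call without knockout replicate 3 (0.28, edgeR adjusted p = 0.0663). The control clone and the parental cells differed by 0.19 on the log2 scale (edgeR adjusted p = 0.231).

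Plaur (ENSMUSG00000046223, chromosome 7, 24462484 to 24475968, plus strand) encodes the receptor that holds urokinase at the membrane through a lipid anchor. It measured 172, 180.5 and 167 CPM in the knockout libraries, 107, 159 and 103 CPM in the control libraries and 120.4, 113 and 123 CPM in the parental libraries. Control replicate 2 came close to the knockout libraries, and the other 5 libraries lay well below them. The means were 173 ± 6.67, 123 ± 31.2 and 119 ± 5.38 CPM (SD, n = 3 each). Plaur was 1.41-fold higher than in the control clone (log2 fold change 0.49, SE 0.15, edgeR adjusted p = 0.0232) and 1.46-fold higher than in the parental cells (0.54, SE 0.15, edgeR adjusted p = 0.0213). These calls were the least stable among the 5 genes. The call against the control clone was lost without control replicate 1, control replicate 3, knockout replicate 2 or knockout replicate 3 (edgeR adjusted p from 0.05 to 0.0847), and without control replicate 2 the log2 fold change was 0.73 (edgeR adjusted p = 3.73e-05). The call against the parental cells was lost whenever 1 knockout or 1 parental library was left out (edgeR adjusted p from 0.0501 to 0.0713). It was kept whenever 1 control library was left out (lowest edgeR adjusted p = 0.000139). With any 1 library left out, this log2 fold change stayed between 0.50 and 0.57. All 9 libraries were in 1 fit, so the wide spread of the control libraries enters this p-value too.

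Serpinb2 (ENSMUSG00000062345, chromosome 1, 107511423 to 107535478, plus strand) encodes plasminogen activator inhibitor 2, a largely intracellular serpin that inhibits urokinase. Its levels were 1.90, 1.72 and 2.63 CPM in knockout clone E4, 6.68, 27.5 and 9.40 CPM in the control clone and 12.6, 11.2 and 10.8 CPM in the parental cells. The knockout libraries were the lowest of the 9, and control replicate 2 was far above the other control libraries. The means were 2.09 ± 0.478, 14.5 ± 11.3 and 11.5 ± 0.92 CPM (SD, n = 3 each). Serpinb2 was 6.93-fold lower than in the control clone (log2 fold change -2.79, SE 0.50, edgeR adjusted p = 0.00186) and 5.54-fold lower than in the parental cells (-2.47, SE 0.50, edgeR adjusted p = 0.00532). Without control replicate 2 the log2 fold change against the control clone was -1.94 (edgeR adjusted p = 6.41e-05). The control clone and the parental cells differed by 0.32 (SE 0.44, edgeR adjusted p = 0.637), and by -0.53 without that library (edgeR adjusted p = 0.0627). The serpin genes Serpinb5 and Serpinb8 are among its 10 nearest tested neighbours, whose median log2 fold change was 0.14 against the control clone and -0.30 against the parental cells. Of these neighbours 3 were called higher and 2 lower against the control clone, beside 18.7% and 24.2% of all genes. Against the parental cells 0 were higher and 5 lower, beside 13.1% and 18.3%. For the control clone versus parental cells 1 was higher and 7 lower, beside 21.4% of all genes called. Serpinb2 overlaps Serpinb10, which held 1 count over the 9 libraries.

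Serpine2 (ENSMUSG00000026249, chromosome 1, 79794197 to 79861180, minus strand) encodes protease nexin-1, a secreted serpin that inhibits thrombin, urokinase and tissue activator. It had 0, 0 and 1 counts in the knockout libraries, 0, 1 and 0 in the control libraries and 0 in each parental library. All 9 values lay under the limit of 3 counts that a count of 0 allows, which was 0.129 to 0.182 CPM depending on the library. No difference was detectable at this depth and no fold is given.

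Anxa2 (ENSMUSG00000032231, chromosome 9, 69453620 to 69491795, plus strand) encodes annexin A2, a calcium-dependent phospholipid-binding protein that pairs with the product of S100a10. It measured 914, 1048 and 958 CPM in the knockout libraries, 1995, 1821 and 2591 CPM in the control libraries and 2097, 2189 and 2343 CPM in the parental libraries. The knockout libraries lay far below all 6 others, and the control range enclosed the parental range. The means were 974 ± 68.3, 2136 ± 404 and 2209.5 ± 124 CPM (SD, n = 3 each). Anxa2 was 2.19-fold lower than in the control clone (log2 fold change -1.13, SE 0.13, edgeR adjusted p = 0.000141) and 2.27-fold lower than in the parental cells (-1.18, SE 0.13, edgeR adjusted p = 0.000183). The control clone and the parental cells differed by -0.05 on the log2 scale (SE 0.12, edgeR adjusted p = 0.812). Its antisense neighbour Gm16144 held 2 counts.

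Levels of different genes were compared per kilobase of exon, with all annotated exons of a gene counted together. The SD below covers the spread between libraries and not an error in these lengths. In every group Anxa2 was highest, with 261 ± 18.3 CPM per kilobase in the knockout clone, 572 ± 108 in the control clone and 592 ± 33.4 in the parental cells (SD, n = 3). Plaur came next with 66.2 ± 2.55, 47.0 ± 11.9 and 45.5 ± 2.06 CPM per kilobase. In the knockout clone Plat at 9.50 ± 1.11 and Plau at 9.40 ± 0.961 CPM per kilobase did not differ beyond their spread between libraries. Serpinb2 was lower there at 0.888 ± 0.204. Before division by length Plat was at 59.3 and Plau at 22.2 CPM, so their closeness rests on the lengths used, 6.24 and 2.37 kb. In the control clone Plat was at 7.35 ± 0.425 and Serpinb2 at 6.19 ± 4.83 CPM per kilobase, and Plau was at 3.91 ± 0.771. The spread of Serpinb2, which rests on control replicate 2, separated it from neither Plat nor Plau there. In the parental cells the order was Plat at 6.46 ± 0.484, Serpinb2 at 4.91 ± 0.392 and Plau at 3.21 ± 0.433 CPM per kilobase.

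The other genes of the pathway were read from a list of 13, of which 8 could be tested. In the knockout clone, 1 was higher and 4 lower than in the control clone, beside 18.7% and 24.2% of all genes tested. Relative to the parental cells 0 were higher and 4 lower, beside 13.1% and 18.3% of all genes. This count of 4 was 2 without knockout replicate 3, where calls over all genes were 2804, beside 4131. Comparing the control clone with the parental cells 0 were higher and 2 lower, beside 21.4% of all genes called in either direction. In that comparison 4 were called without control replicate 3, where calls over all genes were 4102, beside 2814. The list's median log2 fold change was -0.25 against the control clone and -0.60 against the parental cells.

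Serpini1, which encodes neuroserpin, an inhibitor of tissue activator, was set apart in the control clone. It measured 9.18, 8.51 and 9.99 CPM in knockout clone E4, 3.19, 3.63 and 4.62 CPM in the control clone and 6.94, 7.25 and 5.71 CPM in the parental cells. The control libraries were the lowest of the 9, with a log2 fold change of -0.80 against the parental cells (SE 0.17, edgeR adjusted p = 0.0115), and the knockout clone exceeded them by 1.28 (SE 0.17, edgeR adjusted p = 0.000404).

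Plasminogen itself (Plg) had 0, 0 and 1 counts in the knockout libraries and 0 in the other 6, all under the limit of 3 counts. S100a10, the partner of annexin A2, measured 343, 397 and 349 CPM in knockout clone E4, 537, 517 and 428 CPM in the control clone and 420.0, 443 and 452 CPM in the parental cells. The knockout libraries were again the lowest, but the gap to the others was small. S100a10 fell by 0.44 on the log2 scale against the control clone (SE 0.10, edgeR adjusted p = 0.00578), and its log2 fold change was -0.27 against the parental cells (edgeR adjusted p = 0.0635).

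On the uptake side, 3 genes were lower in the knockout clone. Lrpap1, a chaperone of receptors of the LDL receptor family, measured 10.5, 10.4 and 8.82 CPM in the knockout libraries, 32.5, 31.5 and 25.5 CPM in the control libraries and 22.1, 21.7 and 26.8 CPM in the parental libraries. The knockout libraries were clear of the 6 others, at a log2 fold change of -1.59 against the control clone (SE 0.14, edgeR adjusted p = 3.6e-05) and -1.25 against the parental cells (SE 0.14, edgeR adjusted p = 0.000211). Lrp1, the receptor that takes up complexes of activator and inhibitor, measured 18.7, 18.4 and 16.9 CPM, then 60.5, 25.3 and 110.3 CPM, then 51.7, 55.0 and 69.0 CPM in the same order of groups. Its control libraries were widely spread, with replicate 2 near the knockout libraries. The log2 fold change of Lrp1 was -1.86 against the control clone (SE 0.42, edgeR adjusted p = 0.0059) and -1.70 against the parental cells (SE 0.42, edgeR adjusted p = 0.013). Without control replicate 3 the first value was -1.26 (edgeR adjusted p = 0.00725), and without knockout replicate 3 the second lost its call (edgeR adjusted p = 0.0507).

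Vldlr, another receptor for such complexes, measured 1.22, 1.50 and 0.876 CPM in knockout clone E4, 6.33, 0.952 and 13.0 CPM in the control clone and 6.36, 6.84 and 10.1 CPM in the parental cells. Control replicate 2 lay inside the knockout range, so the groups overlapped. The log2 fold changes were -2.49 against the control clone (SE 0.72, edgeR adjusted p = 0.0199) and -2.68 against the parental cells (SE 0.72, edgeR adjusted p = 0.02), and limma voom called neither (adjusted p = 0.143 and 0.0616). The first call was lost without control replicate 3 (-1.64, edgeR adjusted p = 0.0578) or any knockout library, and the second without any knockout library or parental replicate 3. Without control replicate 2 the first value was -2.99 (edgeR adjusted p = 0.000117). Igf2r, which binds plasminogen and the urokinase receptor among other ligands, was set apart in the parental cells, with 35.8, 34.2 and 35.5 CPM while the knockout clone had 19.4, 17.6 and 18.2 CPM and the control clone 15.4, 15.8 and 20.2 CPM. Both clones were lower than the parental cells, by -0.93 (SE 0.11, edgeR adjusted p = 0.000383) and -1.04 (SE 0.11, edgeR adjusted p = 0.000475), and the clone ranges overlapped. Igf2r overlaps the antisense gene Airn and Lrp1 the antisense gene Gm16217, and reads from such partners cannot be told apart here.

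**Figure D2:**
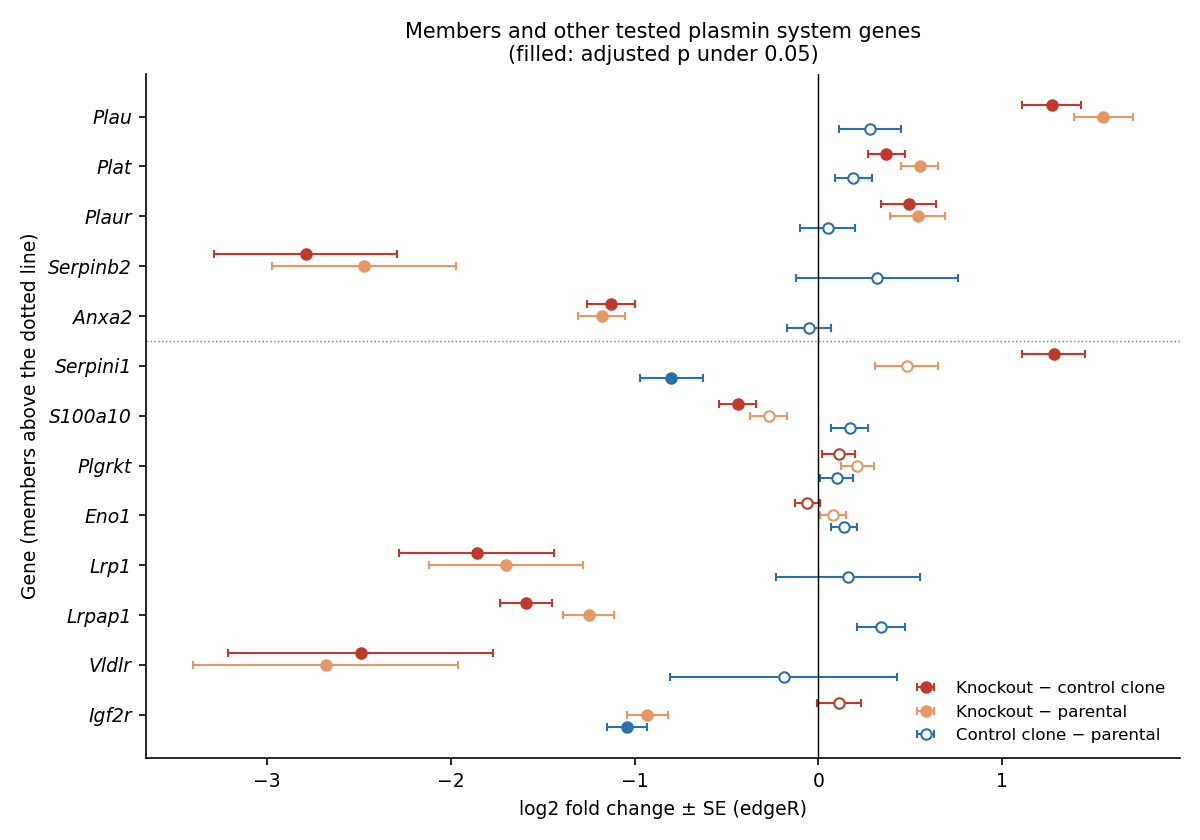
Log2 fold change ± SE from edgeR for the 5 tested genes above the dotted line and the 8 tested genes of the wider pathway below it, with 1 colour for each of the 3 comparisons and filled points at an adjusted p under 0.05. The members' values against the control clone and against the parental cells fall on the same side of 0, while their values for the control clone versus parental cells lie between -0.05 and 0.32.

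Genes for cell-surface coagulation and protease-activated receptors, 9 listed and 5 tested, were called higher in 3 and lower in 1 case against the control clone, and higher in 2 and lower in 1 against the parental cells, beside 42.9% and 31.4% of all genes called. In the control clone 1 was higher and 2 lower, relative to the parental cells, beside 21.4% of all genes called. This count of 3 was 1 without control replicate 1, control replicate 3, knockout replicate 1, knockout replicate 3 or parental replicate 1, and 0 in edgeR without parental replicate 2 or parental replicate 3 (3 at an unadjusted p under 0.05 in each).

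Within the control clone, replicate 2 departed from the others in several of these genes. Against the mean of control replicates 1 and 3 it was higher by 1.78 in Serpinb2, 0.60 in Plaur and 0.46 in Plau on the log2 CPM scale. In the same library Anxa2 differed by -0.32, Plat by -0.12, Lrp1 by -1.68 and Vldlr by -3.12. Control replicates 1 and 3 did not agree in all of these genes either. They measured 60.5 and 110.3 CPM in Lrp1, 6.33 and 13.0 CPM in Vldlr and 1995 and 2591 CPM in Anxa2. In Plau (8.34 and 8.08 CPM) and Plaur (107 and 103 CPM) they were close.

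**Figure D3:**
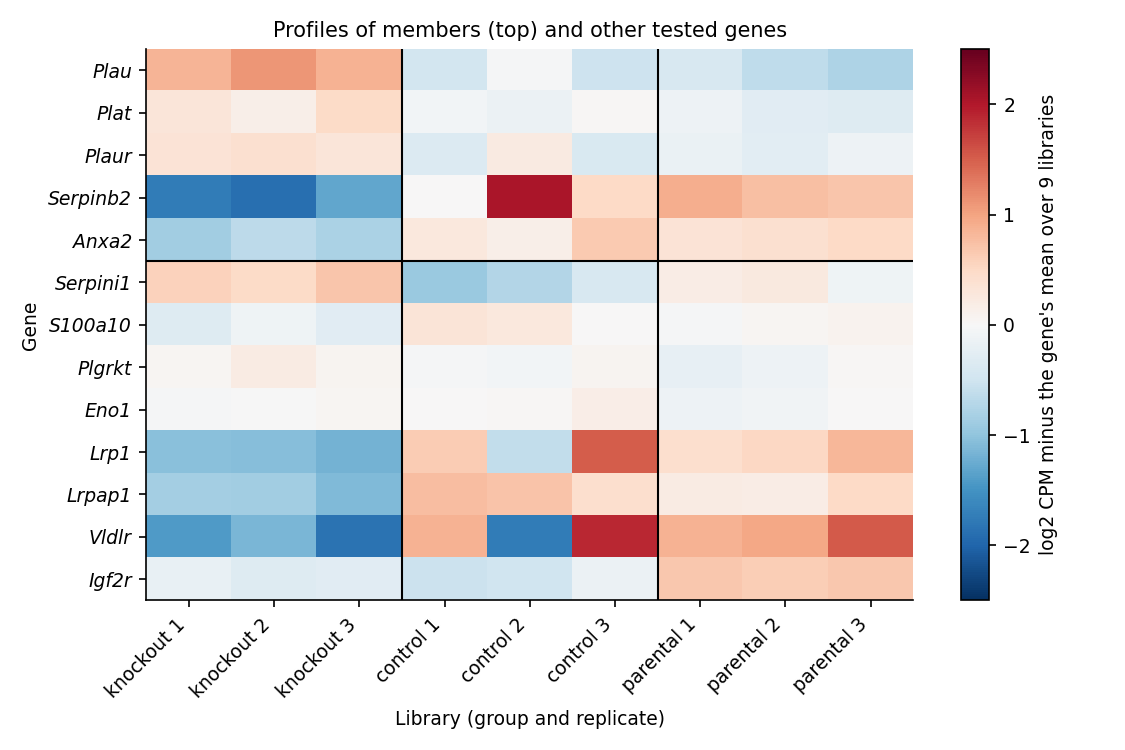
Log2 CPM of each gene minus its mean over the 9 libraries, drawn as a colour map with genes in rows, the 9 libraries in columns and black lines between the groups. Plau, Plaur and Plat are above 0 and Serpinb2 and Anxa2 below 0 in all 3 knockout libraries, and control replicate 2 carries the highest value of Serpinb2, at 2.04.

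By root mean square difference of these centred profiles over the 9 libraries, 3 genes most like each member were taken among 10019 candidates with a mean of at least 5 CPM. For Plau these were Tead3 (0.176), Mdn1 (0.202) and Arid5a (0.21). For Plaur they were Leng1 (0.0575), Pabpc4 (0.0755) and 2310061I04Rik (0.0756), and for Plat they were Rbpj (0.0832), Gm15459 (0.0855) and Zfp385a (0.0862). Serpinb2 had no gene as close, the nearest being Ubash3b (0.444), Fam20c (0.485) and Pard3b (0.565). The 3 genes nearest to Anxa2 were Keap1 (0.0845), Etfa (0.109) and Acat1 (0.113), and all 3 lie on chromosome 9, as Anxa2 does. Leng1 shares chromosome 7 with Plaur, and Pard3b shares chromosome 1 with Serpinb2. Ubash3b, the gene nearest to Serpinb2, lies on chromosome 9.

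The balance between pairs of genes was expressed as the log2 ratio of their levels per kilobase. The ratio of Plau to Plaur was -2.89, -2.71 and -2.85 in the knockout libraries, -3.53, -3.66 and -3.53 in the control libraries and -3.64, -3.79 and -4.06 in the parental libraries. The ratio was higher in the knockout clone by 0.76 relative to the control clone and by 1.01 relative to the parental cells, with no overlap of libraries. Both differences gave a two-sided exact permutation p = 0.1, the smallest that 3 against 3 libraries allows, so no ratio could pass a threshold of 0.05. Over the 6 ratio tests the Benjamini-Hochberg adjusted value was 0.15 for both (exact permutation).

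The ratio of Anxa2 to S100a10 was -0.21, -0.22 and -0.17 in the knockout clone, 0.27, 0.19 and 0.98 in the control clone and 0.70, 0.68 and 0.75 in the parental cells. All 3 knockout libraries had the lowest ratios, with a difference of -0.68 against the control clone and -0.91 against the parental cells (exact permutation p = 0.1 for both, no overlap). Without control replicate 3 the first difference was -0.43.

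**Figure D4:**
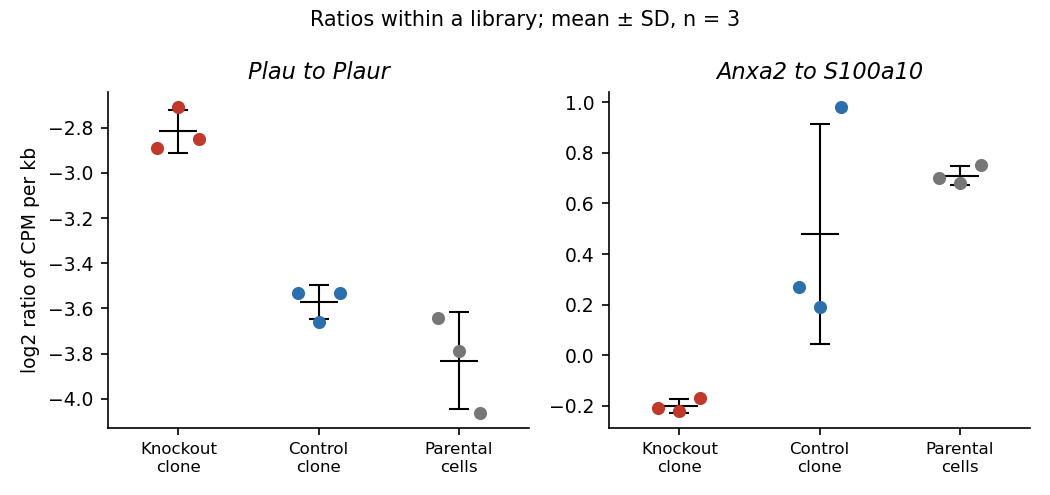
Log2 ratio of levels per kilobase for Plau to Plaur and Anxa2 to S100a10 in each library, with points for libraries and bars for the group mean ± SD (n = 3). The knockout libraries stand above the 6 others for Plau to Plaur and below them for Anxa2 to S100a10.

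The chromosome around each gene was then examined. The other tested genes of chromosome 14 (Plau), 7 (Plaur), 8 (Plat) and 1 (Serpinb2) showed medians of 0.19, -0.02, -0.04 and 0.04 against the control clone (log2 fold change), and against the parental cells 0.21, -0.02, -0.01 and -0.14. Chromosome 9, which carries Anxa2, differed: its 747 other tested genes had a median of -0.53 in both comparisons, and 53.4% and 54.2% of them were called lower, beside 24.2% and 18.3% of all genes. The lower values covered the stretch from the start of the chromosome to 10 Mb past the start of Anxa2, a limit chosen after the values were seen. Its 464 genes had medians of -0.79 against the control clone and -0.72 against the parental cells, and 73.5% and 71.8% were called lower. The 283 genes beyond the limit had medians of 0 and -0.14, with 20.5% and 25.4% called lower. For the control clone versus parental cells the medians of both stretches were 0.04 and -0.13.

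Anxa2 lay inside this stretch, 0.34 below its median against the control clone and 0.46 below it against the parental cells on the log2 scale. Of the genes of the stretch, 30.8% and 21.8% had a log2 fold change at or below that of Anxa2. Keap1, Etfa and Acat1, the genes with the nearest profiles, lay at -48.2, -14 and -15.9 Mb from the start of Anxa2, within the same stretch. Ubash3b, the gene nearest in profile to Serpinb2, lay in this stretch too, at -28.4 Mb. The 10 tested genes flanking Anxa2 had a median of -1.01 against the control clone, with 5 called lower, and of -0.77 against the parental cells, with 9 called lower. The number of copies of the chromosome was not measured in these data, and the part of the stretch in the difference of Anxa2 was not tested.

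**Figure D5:**
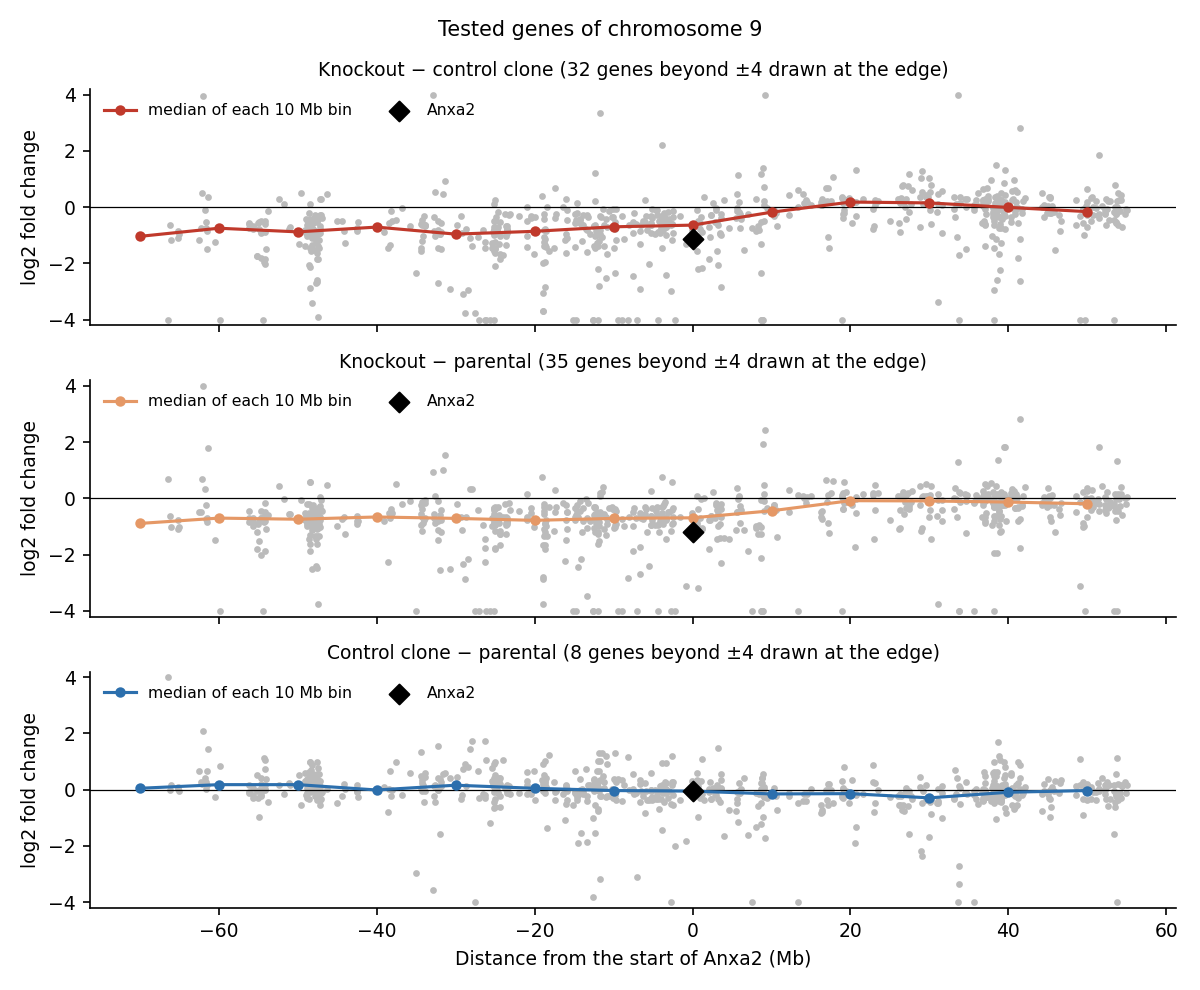
Log2 fold change of each tested gene of chromosome 9 against its distance from the start of Anxa2 in Mb, with medians of 10 Mb bins as a line, with 1 panel for each of the 3 comparisons, a diamond for Anxa2 and genes beyond ±4 drawn at the edge. In both knockout panels, bin medians run between -1.04 and -0.64 up to Anxa2 and between -0.19 and 0.18 from 20 Mb past it, and the bins at -70 and -40 Mb hold only 6 and 16 genes.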

How the data were processed

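RNA was measured in 9 libraries made from total RNA with an mRNA library kit, per the labels. The deposited values are RSEM estimated counts per gene (expected counts, not normalized), per the file headers, and all were whole numbers, so rounding changed none. The submitters' processing notes name GRCm38, STAR 2.5.2, RSEM 1.3.0 and DESeq2 1.10.1 with no role or order. The annotation release and strand setting are not given in the sources used here, so reads of overlapping or antisense genes may be divided between them. Coordinates and exon lengths are from GENCODE on GRCm38, 1-based.

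Genes kept by filterByExpr (count of 10, total of 15) were scaled by TMM and tested in edgeR 4.0.16 (R 4.3.3) by its quasi-likelihood F test, with all 9 libraries in 1 fit. Benjamini-Hochberg adjustment covered all 13153 genes tested, and a gene was called at an adjusted p under 0.05. Standard errors are |log2 fold change|/√F. Centred profiles used log2 CPM with a prior count of 2. The members and lists were chosen with earlier results of these data known.

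The text names the 6 genes, Zdhhc20, S100a10, Plg, every other pathway gene called in 1 direction in 1 group against both others, and for each member whose mean reached 5 CPM the 3 genes with the nearest profile. A further pathway gene that the rule names is not reported here. No 2 libraries of a group agreed within sampling noise (lowest chi-square per gene 4.9). The chi-square per gene was 37.8 to 89.8 between control libraries, 7.15 to 17.4 between knockout libraries and 4.9 to 15.2 between parental libraries. With all 9 libraries in 1 fit, the wider spread of the control clone enters the p-values of every comparison. Limits from a count of 0 cover counting error only. Alternatives were DESeq2 1.42.0 or limma 3.58.1 (voom) as the test, other scalings and filters, a replicate block, fits restricted to the compared pair of groups, a minimum of 1 on the absolute log2 fold change, and each library left out in turn. The test was also run on simulated counts with known changes, whose outcome is not given here. Each simulated gene had 1 spread for all 9 libraries, so this run does not cover the wider spread of the control clone.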

Additional observations from a re-analysis of the deposited data

How the results depend on the processing

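Over 17 alternatives, Plau, Serpinb2 and Anxa2 were called in all 17 in both comparisons of the knockout clone, Plat in 16 against the control clone and 17 against the parental cells, and Plaur in 13 and 11. Of 255 values of the 5 genes under alternatives, 244 stayed called or stayed uncalled, and 11 lost the call. A change of sign was counted as a reversal only where a call was involved, and 0 reversed. Uncalled values did change sign: Serpinb2 in the control clone versus parental cells ran from -0.53 to 0.67. For the other named genes, 329 of 357 stayed called or stayed uncalled, 11 lost a call, 17 gained 1 and 0 reversed in this sense. When the log2 fold change also had to reach 1 in size, 3 of the 5 genes were called in each knockout comparison, since the differences of Plat and Plaur are smaller. Leaving out single libraries gave 3 to 5 genes against the control clone (3 without knockout replicate 3, where Plat and Plaur were lost) and 4 to 5 against the parental cells.

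Counts over all genes moved more. With that size required they were 1843 (knockout versus control clone), 1392 (knockout clone versus parental cells) and 851 (control clone versus parental cells), beside 5643, 4131 and 2814 without it. Fitting only the groups compared gave 6840 (knockout clone versus parental cells) and 1525 (control clone versus parental cells). Leaving out single libraries gave 4301 to 7204, 2515 to 5693 (2515 without parental replicate 3, 2626 without knockout replicate 1) and 1472 to 4102. The cause was not tested. Under total-count scaling, 1771 of 2894 calls of the control clone versus parental cells were lower, beside 1444 of 2814 with TMM.

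Log2 CPM values were taken as deviations from each group's mean and correlated between libraries of different groups. Same-numbered replicates gave -0.134 to 0.212 over 9 pairs, and differently numbered ones -0.301 to 0.252. The numbers were therefore not taken as a pairing. With the replicate number as a block, 5, 5 and 0 of the genes were called, and 5528, 3941 and 2492 of all genes. The block brought Zdhhc20 past the threshold in the control clone versus parental cells (log2 fold change 0.40, edgeR adjusted p = 0.0475). Other plasmin genes called against the parental cells were 7 when only the groups compared were fitted, beside 4.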
